A study of Mus musculus with 6 samples.

Results

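The BCL2 family decides at the outer mitochondrial membrane whether a cell starts apoptosis, and 10 of its genes were followed here in T cells with a floxed or a deleted allele label for the arginine methyltransferase gene Prmt5. The members were the rows of the deposited table with the symbols Bcl2, Bcl2l1, Mcl1, Bax, Bak1, Bcl2l11, Bid, Bad, Bbc3 and Pmaip1. All 10 were found among 54525 gene entries, and all 10 were among the 16006 genes that passed the filter on low counts. The samples were 6 cultures of mouse (C57BL/6) CD4 T cells, taken naive from spleen and lymph nodes. All 6 cultures were stimulated through CD3 and CD28 for 72 hours with human TGFβ and mouse IL-6, the cytokines that polarize CD4 T cells to the Th17 type. The 3 WT cultures carried the genotype label iCD4-PRMT5fl/fl, a floxed Prmt5 gene, and the 3 KO cultures the label iCD4-PRMT5delta/delta. The labels do not name the promoter that drove the deletion, the deleted part of the gene, or the age and sex of the mice. Total RNA was sequenced after removal of ribosomal RNA.

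As background, the family falls into 3 roles. BCL2, BCL-XL (gene Bcl2l1) and MCL1 are anti-apoptotic and hold the others in check, while BAX and BAK (gene Bak1) are the effectors that form pores in the outer mitochondrial membrane and let cytochrome c out. The BH3-only proteins BIM (gene Bcl2l11), BID, BAD, PUMA (gene Bbc3) and NOXA (gene Pmaip1) sense stress and either neutralize the anti-apoptotic proteins or activate the effectors. In T cells BCL2 and MCL1 sustain survival, BIM drives the death of activated cells when cytokine runs out, and Bbc3, Pmaip1 and Bax are known transcriptional targets of p53.

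Libraries held 36011906 to 43141474 counts. Levels are in CPM, the reads of a gene scaled to the size of its library and adjusted by TMM factors, log2 changes are KO over WT, and a gene was called at an edgeR adjusted p under 0.05 over all tested genes. Prmt5 itself stood at 109, 137 and 118 CPM in the WT cultures and at 52.4, 43.8 and 52.9 CPM in the KO cultures (log2 -1.29 ± 0.11 SE, edgeR adjusted p = 0.00012). A two-sided exact permutation test of the 3 WT against the 3 KO levels of Prmt5 reached its smallest possible p, 0.1. The T cell genes Cd3e and Cd4 were read in every library, at 17.9 to 29.3 and at 120 to 281 CPM. Markers of other cells were higher in KO. For the B cell list (4 of 5 markers called higher) the summed level ran from 3.61 to 20.3 CPM in WT and from 38.1 to 104 CPM in KO. The myeloid and dendritic list (5 of 6 called higher) ran from 0.295 to 1.36 and from 7.98 to 28.9 CPM, and the granulocyte and mast cell list (2 of 6 called higher, 2 tested) from 0.0283 to 0.294 and from 7.34 to 37.9 CPM. For the CD8 (2 of 2 called higher), NK and innate lymphoid (3 of 5, 3 tested) and gamma delta (2 of 3, 2 tested) lists the highest WT sums were 7.88, 34.4 and 7.34 CPM, and the lowest KO sums 14.7, 71.6 and 17.2 CPM. The T cell list itself (3 of 7 called higher) ran from 1663 to 1791 and from 1907 to 2017 CPM, and the stromal list (1 of 4, 2 tested, mostly Pecam1) from 138 to 156 and from 202 to 238 CPM. No erythroid marker was tested, and the erythroid marker Hbb-bt was at 0 in all 6 libraries. The part of these cells in the results below was not tested. Reads of Y-linked genes were at 0 CPM in all WT libraries and at 566, 74.4 and 585 CPM in KO replicates 1, 2 and 3, so genotype and the sex of the cells' source cannot be told apart. In bulk RNA, fewer cells of a type and less RNA per cell cannot be told apart.

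The genes for the BH3-only proteins PUMA and NOXA, for the effector BAX and for the anti-apoptotic BCL-XL were higher in KO, while the genes for anti-apoptotic BCL2 and, by a small margin, for BIM were lower. Of the 10 members 6 were called, where 42.5% of all tested genes were. Of these, 4 were called higher, beside 21.7% of tested genes, and 2 were called lower, beside 20.9%. The 3 WT and 3 KO libraries did not overlap for 7 members, against 55.6% of tested genes. The members' median log2 change was 0.25, beside -0.0026 over all tested genes. By role, 1 anti-apoptotic gene rose, 1 fell and 1 was not called, 1 of 2 effector genes rose, and 2 of 5 BH3-only genes rose and 1 fell. In size, the changes of Bbc3 and Pmaip1 were larger than those of 96.4% and 94.3% of tested genes.

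**Figure D1:**
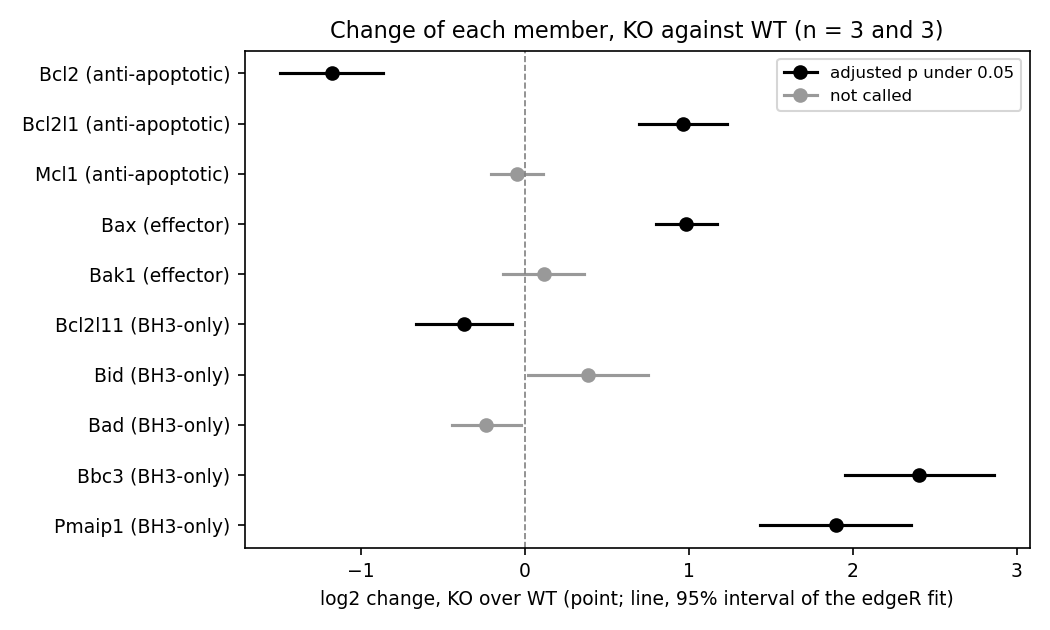
Log2 change of each member, KO over WT, with the 95% interval of the edgeR fit (n = 3 and 3 libraries; black, called; grey, not called). Bbc3 at 2.41 and Pmaip1 at 1.90 lie farthest to the right and Bcl2 at -1.18 farthest to the left, and the interval of Mcl1 lies across 0.

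Among the anti-apoptotic genes, Bcl2 was lower and Bcl2l1 higher in KO, and Mcl1 was not called. Bcl2 (ENSMUSG00000057329.7, GRCm38 chromosome 1, 106538178 to 106714274, minus strand) stood at 185, 236 and 174 CPM in WT replicates 1, 2 and 3 and at 86.4, 99.2 and 77.7 CPM in KO replicates 1, 2 and 3. Every KO culture was below every WT culture, and WT replicate 2 was the highest of all. The mean fell from 198 ± 33.1 (SD, n = 3) to 87.7 ± 10.8 CPM, which is 44.2% of the WT mean (log2 -1.18 ± 0.13 SE, 95% interval -1.49 to -0.86, edgeR adjusted p = 0.000433).

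Bcl2l1, whose main product BCL-XL guards the same membrane, had the lowest mean level per length of the 10 members in WT, although Bbc3 and Bid were below it in WT replicate 2. It stood at 7.22, 7.07 and 5.96 CPM in WT and at 12.4, 13.5 and 13.5 CPM in KO (ENSMUSG00000007659.18, chromosome 2, 152780668 to 152831728, minus strand). The KO cultures lay close together above all WT cultures, and the mean rose 1.95-fold (log2 0.96 ± 0.11 SE, edgeR adjusted p = 0.000514). The counts were summed over the whole gene and do not separate the long and short splice forms of Bcl2l1, whose products act in opposite directions.

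Mcl1, which encodes a short-lived protein that T cells need to survive, was the most abundant member in every culture (ENSMUSG00000038612.16, chromosome 3, 95658788 to 95663176, plus strand). It stood at 652, 583 and 588 CPM in WT and at 596, 621 and 546 CPM in KO, so the groups overlapped. The log2 change of -0.048 ± 0.068 SE was not called (edgeR adjusted p = 0.611), with a 95% interval from -0.21 to 0.11. Its sign turned positive with spike-in scaling, without KO replicate 3, when KO replicate 2 stood alone for KO, and when the Y-linked level was a model term.

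**Figure D2:**
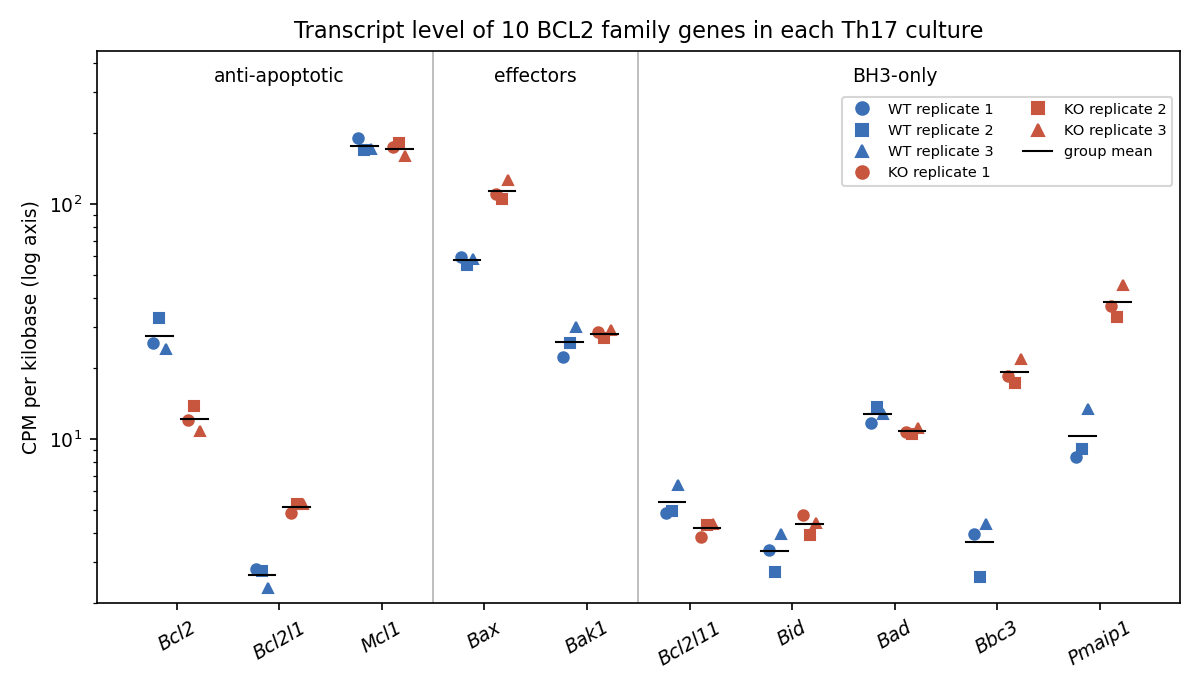
Level of each member in each culture, as CPM per kilobase of deposited gene length on a log axis (blue, WT; red, KO; symbols, replicates; bars, group means). The WT and KO symbols are apart for Bcl2, Bcl2l1, Bax, Bbc3 and Pmaip1, and mixed for Mcl1, Bak1 and Bid.

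Of the effector genes, Bax was called higher and Bak1 was not called. Bax (ENSMUSG00000003873.11, chromosome 7, 45461697 to 45466898, minus strand) stood at 65.4, 60.5 and 64.4 CPM in WT and at 122, 115 and 139 CPM in KO. All KO cultures were above all WT cultures, whose spread was small (63.4 ± 2.58 CPM, SD), and the KO mean of 126 ± 12.4 CPM was 1.98-fold higher (log2 0.99 ± 0.081 SE, edgeR adjusted p = 0.000108). Bak1 (ENSMUSG00000057789.13, chromosome 17, 27019810 to 27029009, minus strand) stood at 53.4, 61.1 and 71.6 CPM in WT and at 68.0, 64.3 and 69.3 CPM in KO. Its KO values lay inside the WT range, and it was not called (log2 0.12 ± 0.11 SE, 95% interval -0.13 to 0.36, edgeR adjusted p = 0.418). The difference between the changes of Bax and Bak1 was not tested.

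Among the BH3-only genes, Bbc3 showed the largest rise of the 10 members. Bbc3, whose product PUMA binds all the main anti-apoptotic proteins, had 253, 192 and 322 reads in WT and 1403, 1184 and 1713 in KO (ENSMUSG00000002083.13, chromosome 7, 16308393 to 16318205, plus strand). In CPM it stood at 7.17, 4.72 and 7.90 in WT and at 33.7, 31.4 and 39.7 in KO. The lowest KO culture was far above the highest WT culture, and the mean rose 5.29-fold (log2 2.41 ± 0.20 SE, 95% interval 1.95 to 2.86, edgeR adjusted p = 0.000104).

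Pmaip1 followed the same direction. This gene, whose product NOXA mainly binds MCL1, stood at 22.2, 24.0 and 35.7 CPM in WT and at 97.4, 87.3 and 120 CPM in KO (ENSMUSG00000024521.7, on chromosome 18). WT replicate 3 was the highest WT culture for Pmaip1 and also for Bbc3, yet was below each KO culture for both. The mean rose 3.72-fold (log2 1.90 ± 0.20 SE, edgeR adjusted p = 0.000291).

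The remaining BH3-only genes changed little. Bcl2l11 stood at 24.3, 24.9 and 32.1 CPM in WT and at 19.3, 21.6 and 22.0 CPM in KO (ENSMUSG00000027381.16, chromosome 2, 128126038 to 128162547, plus strand). The groups were apart by a narrow gap, and the mean in KO came to 77.4% of that in WT (log2 -0.37 ± 0.12 SE, edgeR adjusted p = 0.0461). This call was lost without WT replicate 3, where the log2 change was -0.23 (edgeR adjusted p = 0.122), and without KO replicate 1 (-0.31, 0.162). It was also lost without KO replicate 2 (-0.39, edgeR adjusted p = 0.0977) or KO replicate 3 (-0.40, 0.0895), where the change was no smaller than with all 6 libraries. With a filter at a mean of 1 CPM it was -0.34 (edgeR adjusted p = 0.0573), with upper-quartile scaling -0.32 (0.0737) and with spike-in scaling -0.26 (0.422). It was -0.32 both when KO replicate 2 stood alone for KO (edgeR adjusted p = 0.337) and when the Y-linked level was a model term (0.331), so that the direction stayed in all 17 alternatives.

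Bid, whose product links death receptors to the mitochondrion after caspase-8 cleaves it, stood at 8.13, 6.56 and 9.52 CPM in WT and at 11.5, 9.43 and 10.7 CPM in KO (ENSMUSG00000004446.12, chromosome 6, 120891930 to 120916853, minus strand). KO replicate 2 was below the highest WT value, and Bid was not called (log2 0.39 ± 0.16 SE, 95% interval 0.019 to 0.75, edgeR adjusted p = 0.0854), but it was without WT replicate 3 (log2 0.52, 0.0486). Bad, whose product is held inactive by phosphorylation, stood at 16.96, 19.8 and 18.7 CPM in WT and at 15.6, 15.3 and 16.2 CPM in KO (ENSMUSG00000024959.13, chromosome 19, 6941861 to 6951899, plus strand). All KO values were below all WT values, but the difference was not called (log2 -0.24 ± 0.090 SE, 95% interval -0.45 to -0.025, edgeR adjusted p = 0.0711) except without WT replicate 1 (log2 -0.30, 0.0401).

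KO replicate 3 had the highest Bax, Bbc3 and Pmaip1 and the lowest Bcl2 and Mcl1 among the KO cultures. It also had the highest level of the myeloid gene Lyz2 (22.9 CPM, against 6.08 and 4.93 in KO replicates 1 and 2). Without KO replicate 3 the log2 changes were 2.31 for Bbc3, 1.76 for Pmaip1, 0.91 for Bax, 0.95 for Bcl2l1 and -1.09 for Bcl2, each still called by edgeR (the highest adjusted p was 0.00316, for Bcl2l1). When KO replicate 2 stood alone for KO, which had the lowest Y-linked level of the 3, they were 2.25, 1.68, 0.87, 1.01 and -0.99, again each called (the highest adjusted p was 0.0324, for Bcl2). That single library is assumed in this fit to vary as the WT libraries do.

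Some members share ground with other genes, and the labels do not say whether counting used the strand. Bax shares 915 bases with Gm45808 on the same strand, which had no read in 5 of 6 libraries. Bid and Bcl2l13 share 913 bases on opposite strands, and Bcl2l13 was not called (46.1 CPM in WT and 45.4 CPM in KO, log2 -0.023). Bid also shares 2094 bases with the same-strand entry Gm44260, which was not called (1.05 CPM in WT and 1.69 CPM in KO, log2 0.69). Bad shares 620 bases with the opposite-strand gene Gpr137 (10.2 and 9.02 CPM, not called), and Bak1 lies inside Ggnbp1, which was low on the opposite strand (0.747 and 0.906 CPM). Within Bcl2 lies the same-strand entry Gm37053 (6.35 CPM in WT and 3.06 CPM in KO), which was called lower as well (log2 -1.06, edgeR adjusted p = 0.0323), and the opposite-strand D630008O14Rik was low (0.181 and 0.255 CPM).

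Sequence upstream of the members is shown for Bbc3 and Bax, which rose with Pmaip1, and for Bcl2, the largest fall. RefSeq promoter windows (build GRCm38.p6) matched 9 of the 10 members by symbol, with 15 start sites in all. Pmaip1 had no window and was not searched. The 250 bases before each start were searched for the paired core of a p53 element, written as 2 cores of 4 bases, each of them either CAAG or CATG, or else the core CTAG or the core CTTG, with 6 bases between them. The set of cores reads the same on both strands, so both strands were covered, and hits may overlap. The motif was chosen with the sequences in view. Of all 32851 windows of this length, 5.84% held the pair. Among the 15 windows of members 1 held it, a start of Bbc3, where it spanned chr7:16309489-16309502 and began 94 bases before the start. Capitals mark the 2 cores in these 5′ to 3′ sequences.
Bbc3 chr7:16309333-16309582, plus strand: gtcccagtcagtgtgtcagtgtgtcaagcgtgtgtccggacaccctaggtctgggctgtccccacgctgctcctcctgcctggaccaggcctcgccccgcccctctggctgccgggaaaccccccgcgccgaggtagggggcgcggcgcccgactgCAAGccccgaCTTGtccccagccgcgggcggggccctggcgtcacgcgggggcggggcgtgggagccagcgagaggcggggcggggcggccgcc
Bax chr7:45466899-45467148, minus strand: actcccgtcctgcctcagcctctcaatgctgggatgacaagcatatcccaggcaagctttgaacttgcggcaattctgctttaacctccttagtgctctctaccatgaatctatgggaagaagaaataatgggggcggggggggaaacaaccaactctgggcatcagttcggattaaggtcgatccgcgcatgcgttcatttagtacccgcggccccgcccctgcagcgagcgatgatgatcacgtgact
Bcl2 chr1:106714291-106714540, minus strand: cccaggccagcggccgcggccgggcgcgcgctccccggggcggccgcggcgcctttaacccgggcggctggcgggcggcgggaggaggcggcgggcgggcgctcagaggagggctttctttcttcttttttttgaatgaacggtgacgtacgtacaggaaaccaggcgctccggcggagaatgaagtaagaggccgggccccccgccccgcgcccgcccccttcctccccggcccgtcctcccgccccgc
The Bbc3 window lies inside an intron of a longer annotated transcript of the gene and overlaps no annotated Bbc3 exon. With the 3 bases on each side, the paired core reads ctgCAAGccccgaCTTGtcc. The windows of Bax and Bcl2 hold no such pair with 6 bases between the cores, and other spacings were not searched. This says only that these letters are not in these windows. GC content was 76.4% in the Bbc3 window, 54.0% in that of Bax and 74.8% in that of Bcl2.

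Per kilobase of gene length, the order of the members was led by Mcl1 and Bax in both genotypes. In WT the mean levels were 178 CPM per kilobase for Mcl1, 57.7 for Bax, 27.6 ± 4.61 (SD) for Bcl2 and 26.0 ± 3.84 for Bak1. Bad followed at 12.7 ± 0.98, Pmaip1 at 10.3 ± 2.75, Bcl2l11 at 5.38 ± 0.87, Bbc3 at 3.64 ± 0.92, Bid at 3.34 ± 0.61 and Bcl2l1 at 2.63 ± 0.27 CPM per kilobase. The neighbours Bcl2 and Bak1, Bad and Pmaip1, Bbc3 and Bid, and Bid and Bcl2l1 overlapped between cultures. In KO, Mcl1 (172 CPM per kilobase) and Bax (114) were followed by Pmaip1 (38.4 ± 6.39), Bak1 (28.2 ± 1.09), Bbc3 (19.2 ± 2.36) and Bcl2 (12.2 ± 1.51). Bad (10.8 ± 0.32), Bcl2l1 (5.13 ± 0.25), Bid (4.36 ± 0.44) and Bcl2l11 (4.16 ± 0.29) came last. Pmaip1 thus moved from rank 6 to rank 3, Bbc3 from 8 to 5, and Bcl2 from 3 to 6. In KO the neighbours Bcl2 and Bad, and Bid and Bcl2l11, overlapped between cultures.

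Summed per length, the anti-apoptotic genes came to 219, 206 and 198 CPM per kilobase in WT and to 191, 201 and 176 in KO, where KO replicate 2 lay above WT replicate 3. Mcl1 made up 82.7% to 87.0% of that sum in WT and 90.5% to 91.2% in KO, while the share of Bcl2 was 11.7% to 15.9% in WT and 6.14% to 6.87% in KO. The effector genes summed to 81.8, 80.6 and 88.6 CPM per kilobase in WT and to 139.5, 132 and 156 in KO. The BH3-only genes summed to 32.2, 33.0 and 41.0 in WT and to 74.7, 69.0 and 87.3 in KO. The pro-apoptotic members together thus came to 0.520, 0.551 and 0.653 of the anti-apoptotic sum in the WT cultures and to 1.12, 1.00 and 1.38 of it in the KO cultures, with no overlap. This is a description of RNA levels without a test, and the deposited length of a gene is not the length of the transcript in use. The anti-apoptotic sum holds only Bcl2, Bcl2l1 and Mcl1. Outside it, Bcl2a1d (mean 14.6 CPM per kilobase in WT and 41.8 in KO) and Bcl2a1b (8.26 and 18.0) were called higher. No other anti-apoptotic gene of the BCL2 family followed here was called lower, and the ratio with such genes included was not computed. Outside the family, Birc5, in the list of inhibitors of apoptosis below, was called lower. Single Bcl2a1 values are uncertain, as described below.

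**Figure D3:**
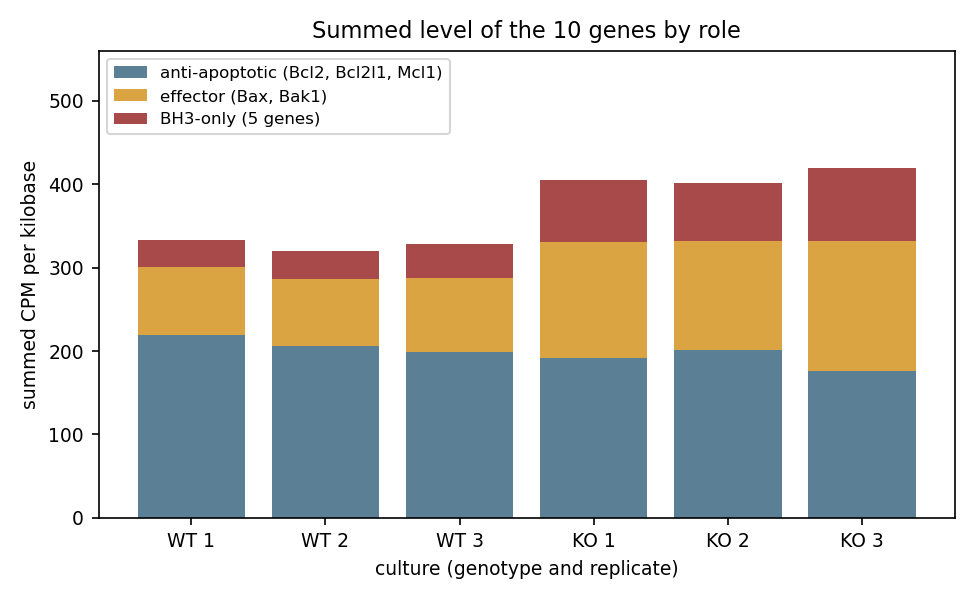
Summed CPM per kilobase of the 10 members in each culture, stacked by role (n = 3 WT and 3 KO cultures). The anti-apoptotic part (Bcl2, Bcl2l1 and Mcl1) stays between 176 and 219, while the effector and BH3-only parts are taller in the 3 KO cultures.

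Within the BH3-only sum the make-up differed as well. Bbc3 and Pmaip1 took 10.3% ± 2.21 and 28.8% ± 3.58 (SD, n = 3) of it in WT, and 25.0% ± 0.12 and 49.7% ± 2.18 in KO. Bad, on average the largest BH3-only share in WT at 36.3% ± 5.02, came to 14.1% ± 1.25 in KO, and Bcl2l11 went from 15.2% ± 0.34 to 5.45% ± 0.68. The sum that these are shares of rose from a mean of 35.4 to 77.0 CPM per kilobase. Bad itself was not called, and the KO mean of Bcl2l11 was 77.4% of its WT mean.

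Ratios of a pro-apoptotic to an anti-apoptotic gene within a culture do not depend on how libraries are scaled. The ratio of Bax to Bcl2 per length was 2.31, 1.68 and 2.42 in WT and 9.24, 7.61 and 11.7 in KO, a 4.46-fold difference of the means with no overlap. Bcl2l11 to Bcl2 was 0.188, 0.150 and 0.263 in WT and 0.319, 0.312 and 0.404 in KO. Here the KO ratio was higher although Bcl2l11 itself was lower in KO, since Bcl2 was lower by more.

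Against Mcl1, Bbc3 stood at 0.0207, 0.0152 and 0.0253 in WT and at 0.107, 0.0952 and 0.137 in KO. Pmaip1 to Mcl1 was 0.0441, 0.0532 and 0.0784 in WT and 0.211, 0.182 and 0.284 in KO. Both BH3-only genes remained below Mcl1 in every culture, and for both ratios the groups did not overlap. Bcl2l11 to Mcl1 (mean 0.0305 in WT and 0.0243 in KO) and Bak1 to Mcl1 (0.147 and 0.164) overlapped between the groups.

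Against Bcl2l1 the direction depended on the partner. Bbc3 to Bcl2l1 went from a mean of 1.41 ± 0.47 (SD) in WT to 3.75 ± 0.44 in KO. Bad to Bcl2l1 went from 4.88 ± 0.69 to 2.11 ± 0.11, and Bak1 to Bcl2l1 from 10.1 ± 2.57 to 5.50 ± 0.39, so these 2 ratios were lower in KO. Of the 10 pairs, 6 ratios were higher in KO without overlap, 2 were lower without overlap and 2 overlapped. The pairs share members, so these counts are not separate from the changes of single members. Among single tested genes 55.6% did not overlap, and the share over all gene pairs was not computed.

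**Figure D4:**
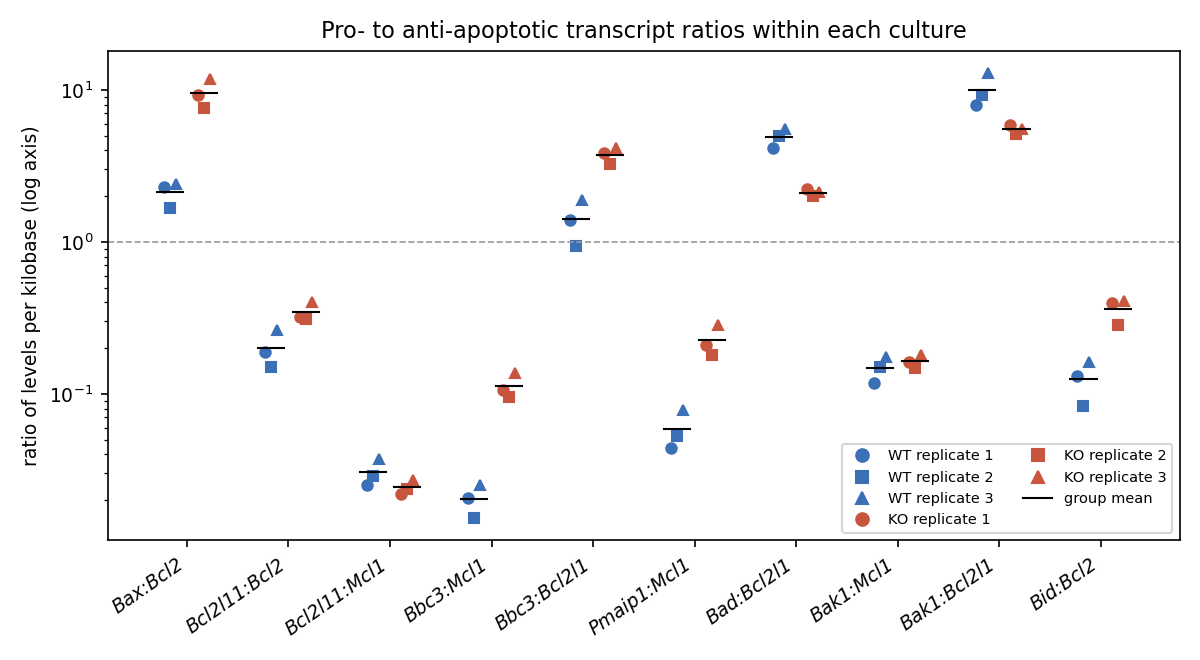
Ratio of a pro-apoptotic to an anti-apoptotic member, each per kilobase, in each culture on a log axis (blue, WT; red, KO; bars, group means). Bax:Bcl2 rises from a mean of 2.14 to 9.53 and Bbc3:Mcl1 from 0.0204 to 0.113, while Bad:Bcl2l1 and Bak1:Bcl2l1 lie lower in KO.

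The other genes of the pathway moved in both directions. In 10 lists with 65 further genes, 61 were tested. Among these 61, 14 rose and 19 fell, where 21.7% and 20.9% of all tested genes were called higher and lower. Their median log2 change was -0.084, beside -0.0026 over all tested genes. The lists were written with earlier results of these data known, and each is described by its counts.

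Of 6 other anti-apoptotic genes 4 were tested and 2 rose. Bcl2a1d, a survival gene of activated lymphocytes and myeloid cells, stood at 14.5, 11.9 and 11.5 CPM in WT and at 33.6, 30.8 and 43.9 CPM in KO (log2 1.52 ± 0.16 SE, edgeR adjusted p = 0.000276). Bcl2a1b rose by a log2 of 1.12 and Bcl2a1a was not called at a similar estimate (1.52 ± 0.65 SE). These copies are near identical, and how reads with several positions were assigned is not stated, so single Bcl2a1 values are uncertain. The myeloid and granulocyte markers given above were also higher in KO, and their part in the Bcl2a1 values was not tested. Bcl2l2, which encodes BCL-W, was not called (log2 0.31 ± 0.18 SE).

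Of 4 further effector and BH3-only genes, 3 were tested and only Bik was called, which fell from 4.35 ± 0.17 to 2.96 ± 0.37 CPM. Bmf and Bok were low and not called, and Hrk had 1 read in all 6 libraries together. Of 6 BCL2-related genes 1 rose and 2 fell. Bnip3 and Bnip3l, hypoxia-induced genes whose products promote the removal of mitochondria, fell, Bnip3 from 316 ± 14.4 to 93.8 ± 20.0 CPM (log2 -1.75 ± 0.14 SE, edgeR adjusted p = 0.000106) and Bnip3l by 0.75 on the log2 scale. Bcl2l15 rose at a low level, from 1.52 ± 0.34 to 2.58 ± 0.63 CPM.

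Downstream of the mitochondrion, 1 of 8 genes of the apoptosome and of mitochondrial release rose and 3 fell. Apaf1, the scaffold that cytochrome c assembles into the apoptosome, rose from 122 ± 5.38 to 180.2 ± 5.40 CPM, while Endog and the cytochrome c gene Cycs fell (log2 -0.69 and -0.31). The other fall was Casp9 (log2 -0.44), the initiator caspase of the apoptosome, named after its values were seen. Of 5 apoptotic caspase genes 1 rose and 3 fell. Casp6, an executioner caspase, stood at 58.1, 60.4 and 56.5 CPM in WT and at 20.4, 18.6 and 24.3 CPM in KO, with no overlap (log2 -1.47 ± 0.10 SE, edgeR adjusted p = 6.07e-05). The log2 changes of Casp8 and Casp2, both called lower, were -0.48 and -0.25.

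The 5 genes for inhibitors of apoptosis held 2 rises and 1 fall. Birc2, which encodes the ubiquitin ligase cIAP1, rose from 96.0 ± 6.55 to 277 ± 16.1 CPM (log2 1.53 ± 0.071 SE, edgeR adjusted p = 1.65e-05), and Birc6 rose by a log2 of 0.24. Birc5, the mitotic gene for survivin, fell by 0.73 on the log2 scale. Xiap and Birc3 were not called. In the death receptor list 3 of 9 genes rose and 1 fell. Tnfrsf10b, the mouse receptor for the death ligand TRAIL, rose from 3.79 ± 0.51 to 11.6 ± 0.79 CPM (log2 1.61 ± 0.14 SE), the TRAIL gene Tnfsf10 rose from 15.3 ± 3.13 to 24.3 ± 3.07 CPM, and Fas by a log2 of 1.12. The fall was Ripk1 (log2 -0.16), named after its values were seen.

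Among 12 regulators, 11 were tested, of which 2 rose and 4 fell. The lowest adjusted p-values were those of Myc (log2 -0.75), of Mdm2, which restrains p53 and is induced by it (log2 0.56), and of Ddit3, a stress factor that can induce Bcl2l11 (log2 -0.70). Mdm4 (log2 0.47), E2f1 (-0.69) and Atf4 (-0.32) were also called and are named after their values were seen. Trp53, named after its values were seen, stood at 10.9, 23.5 and 12.3 CPM in WT and at 16.6, 11.8 and 17.5 CPM in KO. Its groups overlapped and it was not called (log2 -0.025 ± 0.30 SE, edgeR adjusted p = 0.956). Trp73 did not pass the filter on low counts.

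Of 4 genes for enzymes that control MCL1 turnover, March5, a mitochondrial ubiquitin ligase, rose by a log2 of 0.47 and Fbxw7 fell by 0.43 on the log2 scale, while Huwe1 and Usp9x were not called. Of 6 genes for kinases that can phosphorylate BAD, 1 rose and 3 fell. Pim3, Pim1 and Akt2 fell by 0.72, 0.76 and 0.37 on the log2 scale. Pim1 varied among WT cultures, at 532 ± 167 CPM (SD, n = 3).

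**Figure D5:**
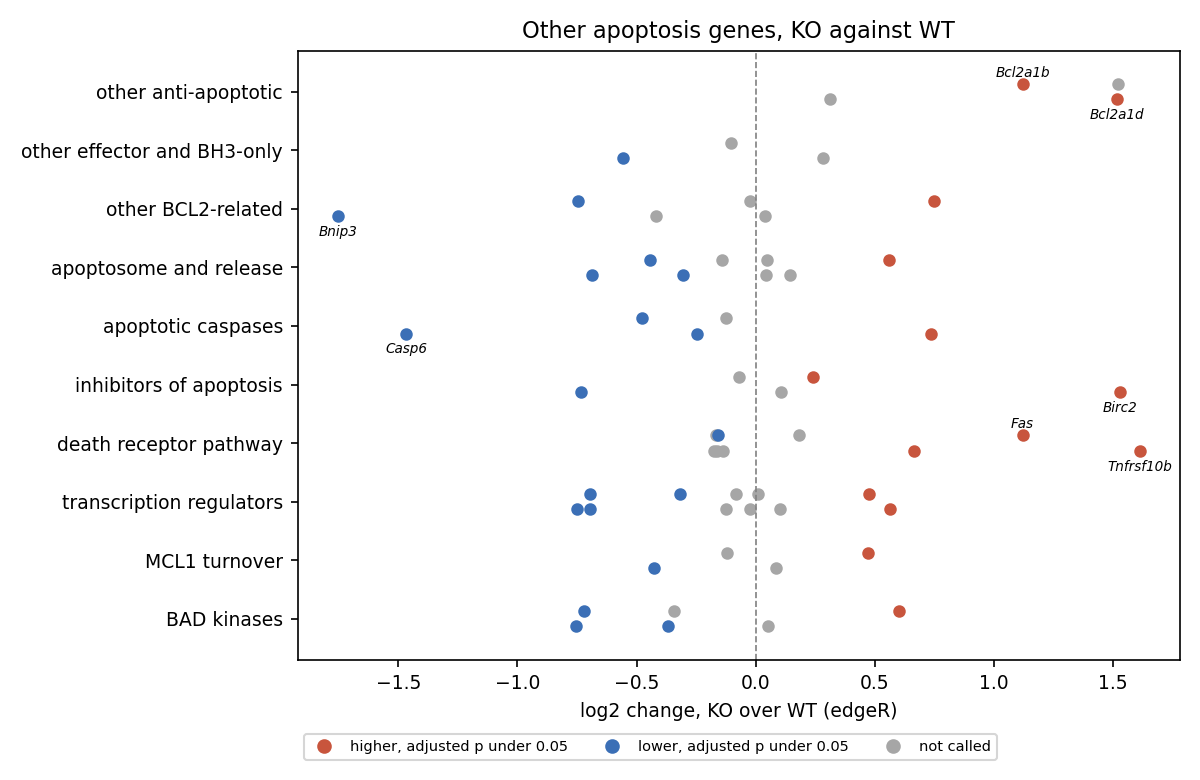
Log2 change, KO over WT, of the 61 tested genes in 10 apoptosis lists (1 point per gene; red, called higher; blue, called lower; grey, not called; names given for called genes beyond a log2 of 1 in either direction). Points lie on both sides of 0 in most lists, from Bnip3 at -1.75 to Tnfrsf10b at 1.61.

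In the authors' deposited table the log2 fold changes of the members were close to these values. The authors' deposited table gave 2.38 for Bbc3, 1.87 for Pmaip1, 0.98 for Bax, 0.95 for Bcl2l1, -1.14 for Bcl2 and -0.34 for Bcl2l11, with adjusted p-values of 4.42e-32, 3.36e-20, 1.34e-21, 2.18e-12, 3.05e-14 and 0.0285. For Mcl1, Bak1, Bid and Bad the authors' deposited table gave adjusted p-values of 0.762, 0.430, 0.0553 and 0.0683.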

How the data were processed

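RNA was sequenced from 3 WT and 3 KO cultures, assigned by their titles, with columns matched through the header given in each description. The authors deposited raw counts per gene, whole numbers, for 54525 genes and 92 spike-in RNAs. The authors also deposited a normalized signal, log2 fold changes with adjusted p-values, which were used only where said (the signal was not used), and a gene length. Per the submitters' processing notes STAR, featureCounts, DESeq2, DESeq and the build GRCm38.p3 were used, without versions or roles. Per the labels' protocols, libraries were stranded.

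Spike-ins were removed, genes kept by filterByExpr (minimum count 10, minimum total 15), scaled by TMM and tested with the quasi-likelihood test of edgeR 4.0.16 (R 4.3.3, limma 3.58.1, DESeq2 1.42.0 for alternatives), genotype as the only term, with Benjamini-Hochberg adjustment over 16006 genes. The procedure was tested on simulated data. The SE is the absolute coefficient divided by the square root of F. Levels per kilobase used the deposited length. Positions came from GENCODE M21 (GRCm38). The members and lists were chosen with earlier results of these data known. The genes named are all members, Prmt5, up to 3 called genes with the lowest adjusted p per list and, in lists of at most 6 tested genes, any gene, and a few of them are not reported here. Replicate numbers were not treated as pairs in the main fit. The correlations of deviations of same-numbered cultures were -0.024, 0.0060 and 0.082, which cannot show whether the cultures were handled in pairs. Column names carry the number 51 in all KO libraries. If that is a shared animal, the p-values are too small, and they otherwise measure the spread between cultures described as biological replicates. Alternatives were other tools, scalings and filters, left-out libraries, a covariate and a replicate block.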

Additional observations from a re-analysis of the deposited data

How the results depend on the processing

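The 5 calls of Bbc3, Pmaip1, Bax, Bcl2l1 and Bcl2 kept their direction and their side of the threshold under all 17 alternatives, with log2 changes of 2.20 to 2.55, 1.62 to 2.13, 0.83 to 1.12, 0.88 to 1.11 and -1.27 to -0.96, and Prmt5 did so too (-1.51 to -1.15). The Y-linked covariate was 0 in all WT libraries and, relative to KO replicate 3, 0.96 and 0.13 in KO replicates 1 and 2. Its fit therefore rests mainly on KO replicate 2 and is not separate from the fit with that KO library alone. The count of members called higher was 4, and 4 to 5 with 1 library left out. The count called lower was 2, and 1 to 3 with 1 library left out. It was 1 with upper-quartile scaling, spike-in scaling, a filter at a mean of 1 CPM, KO replicate 2 standing alone for KO and the Y-linked covariate, since Bcl2l11 lost its call there. The log2 change of Mcl1, never called, turned to 0.097 with spike-in scaling, 0.0089 without KO replicate 3, 0.035 with KO replicate 2 alone and 0.053 with the covariate. Leaving out single libraries gave -0.084 to 0.0089. Spike-in scaling moved the median of all genes by 0.14, and relative to that the change of Mcl1 was -0.038 and that of Bcl2l11 -0.40.

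Of all genes 6809 were called, and 4448 with spike-in scaling, 2752 with KO replicate 2 alone, 3478 with the covariate and 5203 to 7033 with 1 library left out. Genes called higher numbered 3466, but 1424 with KO replicate 2 alone, 1830 with the covariate and 3085 with spike-in scaling (2691 to 3545 with 1 library left out). Genes called lower numbered 3343, but 1328, 1648 and 1363 in the same order (2469 to 3488). Of the genes in the 10 apoptosis lists, 19 were called lower, but 9 with the covariate and 9 with spike-in scaling (14 to 21 with 1 library left out). In the same lists 14 were called higher, but 11 with the covariate, and 14 with spike-in scaling (12 to 15 with 1 library left out). The cause of these moves was not tested. With the replicate block 6190 genes were called, and no member's call changed. Mcl1 rests on 23012 to 24810 reads per library and Bbc3 in WT on 192 to 322, which limits the precision of its fold.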
